A study of Mus musculus with 13 samples.

Results

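Wfs1 and 6 genes of protein folding in the endoplasmic reticulum (ER) were examined in mouse brain, namely Calr, Canx, Pdia3, Pdia4, Pdia6 and Xbp1. They are 7 of the 8251 genes to which the array's annotation assigns a probe set alone, and every such probe set was taken, 10 in all. The tissue was the whole brain hemisphere, and the assay was the Affymetrix MG-U74Av2 array. Its sets of short oligonucleotides are each meant to read 1 transcript, but some were annotated to several genes. The arrays came from 3 R6/2 treated, 4 R6/2 untreated, 3 wild type treated and 3 wild type untreated samples. R6/2 mice carry the first exon of human huntingtin with a long CAG repeat, driven by the human promoter, beside their own intact gene, and they model Huntington's disease. Treated mice received tacrine, a cholinesterase inhibitor, at 2.7 mg/kg per day from 5 weeks of age, together with moclobemide, a monoamine oxidase A inhibitor, at 10 mg/kg per day and creatine at 1% of the mash. The labels list these drugs for untreated samples too, so treatment was read from the titles. Age at harvest appears in the labels of 1 wild type untreated sample, as 8 weeks. They give no sex and do not say that each array is a separate animal, so the p-values measure the spread between these samples, which may be technical.

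Wolframin, the product of Wfs1, is a membrane protein of the ER that takes part in calcium handling there and restrains the stress sensor ATF6, and its loss causes Wolfram syndrome. In rodent brain it is known for strong expression in neurons of the hippocampal CA1 field, the striatum, the amygdala and the upper cortex. The other 6 genes serve folding in every cell. Calreticulin (Calr) and calnexin (Canx) are lectin chaperones that hold newly made glycoproteins, and Pdia3 is the disulfide isomerase that works with them. Pdia4 and Pdia6 are further disulfide isomerases of the ER lumen, and Xbp1 encodes the transcription factor that the sensor IRE1 activates by splicing when unfolded protein builds up. When the ER is stressed, ATF6 and XBP1 raise folding genes through the ER stress response element (ERSE).

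The promoters are shown because the folding genes are textbook targets of that element, so that a shared response would be looked for at these letters. RefSeq promoters on GRCm38.p6, from 250 bases before to 50 after the start of each gene, were matched for 7 of 7 genes. The ERSE was searched as an exact match on both strands and was found in 3 of them, Calr, Canx and Pdia6, against 0.119% of the 32851 promoters in the table. The stretches below read 5′ to 3′ along the gene's strand, and the capitals mark the ERSE in the 3 folding genes and the CCAAT box, read as ATTGG, in Wfs1.
Calr, chr8:84847055-84847113, minus strand: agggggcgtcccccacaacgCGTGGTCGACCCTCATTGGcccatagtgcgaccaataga
Canx, chr11:50325780-50325838, minus strand: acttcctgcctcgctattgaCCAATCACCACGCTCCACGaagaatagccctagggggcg
Pdia6, chr12:17266471-17266529, plus strand: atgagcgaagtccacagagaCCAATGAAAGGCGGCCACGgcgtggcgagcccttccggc
Wfs1, chr5:36988983-36989182, minus strand: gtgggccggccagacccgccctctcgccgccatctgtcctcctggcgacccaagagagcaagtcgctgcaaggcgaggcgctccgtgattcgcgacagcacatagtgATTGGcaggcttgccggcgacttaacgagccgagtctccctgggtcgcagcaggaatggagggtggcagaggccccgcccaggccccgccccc
Wfs1 held 1 CCAAT box, a 5-letter match found in 37.4% of all promoters, and no exact ERSE. Near matches to the ERSE were not searched in any gene. The second form of the element, ERSE-II, and the core of the unfolded protein response element, TGACGTGG, were in none of the 7, against 0.0365% and 0.676% of all promoters. Pdia3 held 2 CCAAT boxes and Pdia4 held 3, with no exact ERSE in either, and the Xbp1 window held none of the 4 motifs, some of which share letters (the ERSE contains a CCAAT box). These matches describe letters in a window and carry no measure of binding.

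The genes lie apart in the genome, on GRCm38.p6. Wfs1 spans chr5:36966104-36988982, Pdia3 chr2:121413902-121438687, Pdia4 chr6:47796141-47813512, Calr chr8:84842088-84846931, Xbp1 chr11:5520641-5525993, Canx chr11:50293957-50325673 and Pdia6 chr12:17266589-17284785. Canx had 2 probe sets and Pdia6 had 3, and the other genes 1 each. Of the 3 Pdia6 sets, 94208_at and 94209_g_at were designed from the same sequence record and 94207_at from another. The Calr set, 93523_at, lay between 1 and 8.6 signal units on all 13 arrays, under the minimum of 24.9 used here, so Calr was not measured. The other 9 sets passed.

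The arrays had median signals of 39.6 to 45.1. The first principal component held 33.9% of the variance, and R6/2 untreated arrays 3 and 2 stood apart on it, at 45.7 and 25.4 against 4.09 or less on every other array. Control probe sets gave no separate check of quality, since those of R6/2 untreated arrays 2, 3 and 4 were 1.2 times those of 3 other R6/2 arrays in 66 of 66 rows. The lot number in the labels was the array's own for 12 arrays, and R6/2 treated array 1 carried that of R6/2 untreated array 4, so no lot could be fitted as a block. All 13 of the general neuron markers with a probe set were above the filter, as were 7 of 8 for oligodendrocytes and 8 of 9 for astrocytes. So were 8 of 11 for microglia, 10 of 10 for endothelium and mural cells, 5 of 8 for choroid plexus and ependyma and 4 of 5 for blood. The filter kept every probe set at or above the 40th percentile, so these counts do not single out a tissue.

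Wfs1 was lower in R6/2 brain with and without treatment, in every array. Its signal was 183.5, 164.1 and 143.9 in R6/2 treated samples and 188.6, 133, 145.1 and 167.9 in R6/2 untreated samples. It was 303.1, 313.9 and 251.5 in wild type treated samples and 317.1, 358 and 371.3 in wild type untreated samples. The highest R6/2 array thus lay below the lowest wild type array, and the 2 R6/2 groups overlapped. Genotype groups did not overlap, in either direction, for 26.2% of all probe sets in untreated mice and 16.8% in treated mice. The group means were 164 ± 19.8 (SD, n = 3) in R6/2 treated, 159 ± 24.7 (SD, n = 4) in R6/2 untreated, 290 ± 33.3 (SD, n = 3) in wild type treated and 349 ± 28.2 (SD, n = 3) in wild type untreated samples.

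**Figure D1:**
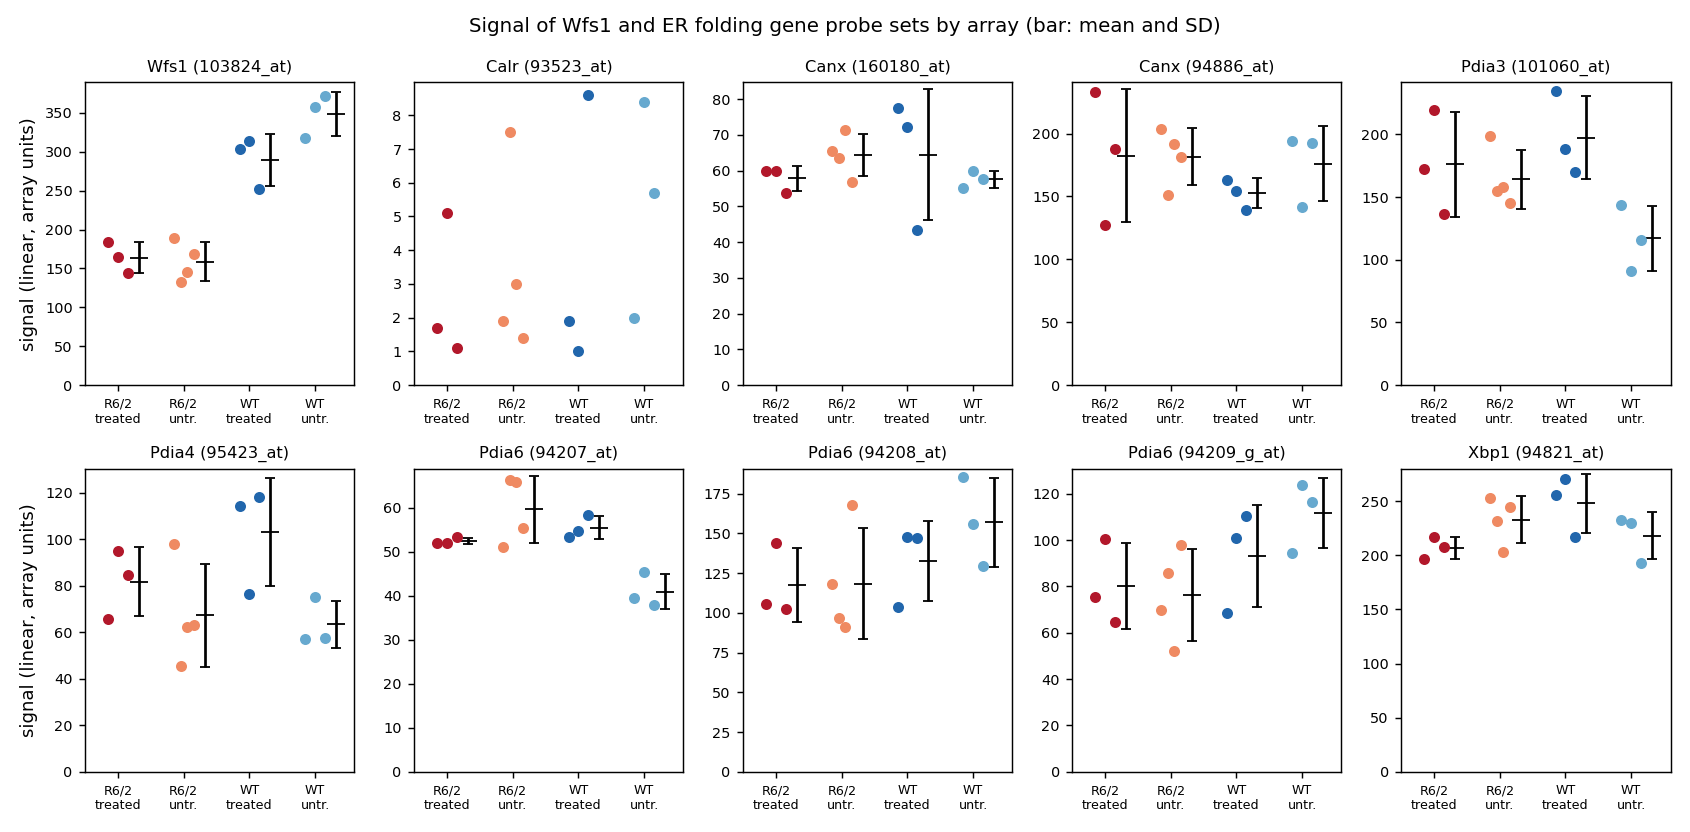
Signal of each of the 10 probe sets (linear array units, axes from 0) by group, 1 point an array, with the mean and SD beside the points except for Calr, which lay under the detection filter. The 7 R6/2 points of Wfs1 all lie below its 6 wild type points, between 133 and 188.6 against 251.5 and 371.3, while the R6/2 and wild type points of Canx and Xbp1 share their ranges. Over all probe sets, genotype groups did not overlap for 26.2% in untreated and 16.8% in treated mice.

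Fitted with limma on log2 values over all 13 arrays, the change of Wfs1 in untreated mice was -1.15 ± 0.14 (SE), or 0.452 times the wild type signal. Its adjusted p was 0.000511 (Benjamini-Hochberg over 7453 probe sets), and 11.9% of all probe sets passed in this comparison, 6.41% as lower. By p it ranked 15 of 7453. In treated mice the change was -0.82 ± 0.15 (SE), or 0.566 times, with adjusted p = 0.0173, where 0.792% of probe sets passed, 0.711% as lower, and it ranked 37 by p. Averaged over both arms it was -0.98 ± 0.10 (SE) with adjusted p = 5.98e-05, where 6.61% passed, 4.04% as lower, and 0.644% of all probe sets had a lower value. Permuting genotype within each arm in all 700 ways gave an exact two-sided p of 0.00143, the smallest possible, and 0.0507 after adjustment over all probe sets.

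The drop in untreated mice was -0.97 with adjusted p = 0.00372 without R6/2 untreated arrays 2 and 3, which stood apart. In treated mice the call rested on few arrays. The adjusted p was 0.0531 without R6/2 treated array 2, 0.101 without R6/2 treated array 3, 0.0938 without wild type treated array 1 and 0.0910 without wild type treated array 2, with changes of -0.83 to -0.73 in these 4 cases.

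No treatment effect on Wfs1 passed in either genotype. The change was 0.05 ± 0.14 (SE) in R6/2 mice (adjusted p = 0.878, 95% interval -0.25 to 0.36), and the groups overlapped, where 10.6% of probe sets had groups that did not. In wild type mice it was -0.27 ± 0.15 (SE, adjusted p = 0.555, interval -0.60 to 0.05), with all 3 treated arrays below all 3 untreated ones, as in either direction for 21.8% of probe sets. No probe set passed in these comparisons, or 0% of 7453, although 1262 and 769 had an unadjusted p under 0.05. The difference between the treatment effects was 0.32 ± 0.21 (SE, adjusted p = 0.499, 0% of probe sets passing). Among the 4 levels, then, the gap between the 2 wild type groups and that between the 2 R6/2 groups did not pass the test, and the gap between wild type treated and R6/2 treated samples did.

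Some markers of neurons in which Wfs1 is known to be strong also fell in R6/2 mice. The summed signal over 10 genes was 2188 to 2393 in R6/2 treated, 2343 to 2430 in R6/2 untreated, 4152 to 4657 in wild type treated and 4466 to 4785 in wild type untreated samples. Of the 8 that passed the filter, 4 fell in untreated mice (Hpca, Penk, Camk2a and Nrgn) and 2 in treated mice (Hpca and Penk), where 6.41% and 0.711% of all probe sets fell. Calb1 (-0.11), Cux1 (-0.23), Pde1a (-0.18) and Dcn (0.09) did not pass in untreated mice, the sum is led by Penk and Hpca with mean signals of 1273 and 859, and Cux2 and Rasgrf2 were under the filter. General neuron markers summed to 11157 to 12197 in R6/2 treated, 10750 to 11308 in R6/2 untreated, 11715 to 12978 in wild type treated and 12892 to 13319 in wild type untreated samples. In untreated mice 5 of 13 of them fell, as did 4 of 7 for oligodendrocytes, 3 of 8 for astrocytes and 1 of 4 for blood, against the same 6.41%. Against 5.49% of all probe sets, 1 of 8 for microglia and 1 of 5 for choroid plexus and ependyma rose, while none of 10 for endothelium and mural cells passed. In treated mice no general neuron marker and no marker of these other cell types passed, where 0.792% of all probe sets did. The marker calls were not examined without R6/2 untreated arrays 2 and 3, which stood apart. Over all probe sets, calls in untreated mice numbered 887 with these arrays and 167 without them. The part of these shifts in the Wfs1 result was not tested, and fewer cells of a type cannot be told apart from less RNA per cell in tissue of this kind.

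Among the lectin chaperones, Canx showed no genotype change that passed on either set. Its brighter set, 94886_at, had 232.7, 127.3 and 187.3 in R6/2 treated and 203.6, 150.9, 191.3 and 181.1 in R6/2 untreated samples. The wild type treated samples had 163.2, 154.5 and 139.5, and the wild type untreated samples 194.3, 141.4 and 192.2. All groups overlapped, and the change was 0.05 ± 0.19 (SE) in untreated mice (adjusted p = 0.876, interval -0.35 to 0.45) and 0.22 ± 0.20 in treated mice (adjusted p = 0.874). The other set, 160180_at, ranged from 43.5 to 77.6 and changed by 0.16 ± 0.18 (SE, adjusted p = 0.594) and -0.11 ± 0.20 (adjusted p = 0.959) in the same comparisons. Both intervals in untreated mice stop at 0.55 or less, so they leave room for a modest rise and none for a fall of the size Wfs1 had.

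Pdia3 was lowest in wild type untreated samples. Its signal was 172.4, 219.2 and 136.2 in R6/2 treated and 198.6, 155, 158.3 and 145.1 in R6/2 untreated samples, against 234.3, 188.1 and 169.8 in wild type treated and 143.7, 91.3 and 115.8 in wild type untreated samples. The R6/2 untreated arrays all lay above the wild type untreated ones, as did the wild type treated arrays. Wild type treated and untreated groups did not overlap, in either direction, for 21.8% of probe sets. The change in untreated mice was 0.50 ± 0.19 (SE, adjusted p = 0.0929), where 26.2% of probe sets had groups that did not overlap. Treatment in wild type mice gave 0.77 ± 0.20 (SE, adjusted p = 0.284), rank 51 by p among 7453, and passed only when arrays were weighted (0.77, adjusted p = 0.0421). In treated mice the genotype change was -0.18 ± 0.20 (SE, adjusted p = 0.912) and the groups overlapped, where 16.8% of probe sets had groups that did not.

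Pdia4 had a like order of levels. It was at 65.6, 95 and 84.5 in R6/2 treated and 98, 45.4, 62.2 and 63.3 in R6/2 untreated samples, against 114.2, 76.3 and 118.3 in wild type treated and 57.3, 75 and 57.7 in wild type untreated samples. Only wild type treated and untreated samples did not overlap, as for 21.8% of probe sets, at 0.69 ± 0.26 (SE, adjusted p = 0.389), and the genotype changes were 0.04 ± 0.24 (SE, adjusted p = 0.922) in untreated and -0.32 ± 0.26 (adjusted p = 0.824) in treated mice.

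Pdia6 gave opposite readings from its probe sets. On 94207_at the signal was 52.1, 52.1 and 53.3 in R6/2 treated and 51.1, 66.4, 65.8 and 55.4 in R6/2 untreated samples, against 53.4, 54.7 and 58.4 in wild type treated and 39.4, 45.5 and 37.9 in wild type untreated samples. The 2 untreated groups did not overlap, as in either direction for 26.2% of probe sets. The signal rose in untreated R6/2 mice by 0.54 ± 0.15 (SE, adjusted p = 0.0338), where 5.49% of all probe sets rose. This call was lost without R6/2 untreated array 2 (adjusted p = 0.0891) or 3 (0.0764) and without wild type untreated array 1 (0.0938), 2 (0.0674) or 3 (0.127), with changes of 0.49 to 0.62 in these 5 cases. Without both R6/2 untreated arrays 2 and 3 the change was 0.38 (adjusted p = 0.228). In treated mice it was -0.08 ± 0.16 (SE, adjusted p = 0.964), with all R6/2 arrays below all wild type arrays, where 16.8% of probe sets did not overlap. Treatment in wild type mice gave 0.44 ± 0.16 (SE, adjusted p = 0.376), again without overlap, as for 21.8% of probe sets. The wild type untreated arrays were the lowest of all on this set.

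The other Pdia6 sets had negative changes that did not pass. On 94208_at the signal was 105.6, 144.2 and 102.6 in R6/2 treated and 117.9, 96.7, 91.3 and 167.6 in R6/2 untreated samples, against 103.8, 148 and 146.9 in wild type treated and 185.4, 156.2 and 129.2 in wild type untreated samples. All groups overlapped, and the untreated genotype change was -0.43 ± 0.22 (SE, adjusted p = 0.191). On 94209_g_at it was -0.58 ± 0.23 (SE, adjusted p = 0.107). Without R6/2 untreated array 4, which was the highest of its group on both, they passed at -0.62 (adjusted p = 0.0436) and -0.71 (adjusted p = 0.0498). Over the 13 arrays these 2 sets had r = 0.763 with each other and r of -0.545 and -0.490 with 94207_at. With group means taken out these were 0.649, -0.302 and -0.01. The negative value thus nearly vanished for 94209_g_at, and for 94208_at it was weaker but remained. The direction for Pdia6 depends on the probe set read.

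Xbp1 was the steadiest member. Its signal was 196.7, 216.6 and 207.4 in R6/2 treated and 253.3, 231.6, 202.7 and 244.5 in R6/2 untreated samples, against 255.5, 270.9 and 217.3 in wild type treated and 232.5, 229.5 and 192.8 in wild type untreated samples. The treated R6/2 arrays all lay below the treated wild type arrays, where 16.8% of probe sets did not overlap, and the other pairs overlapped. The genotype change was 0.09 ± 0.12 (SE, adjusted p = 0.636) in untreated mice and -0.26 ± 0.13 (SE, adjusted p = 0.613) in treated mice. The array reads total Xbp1 transcript, so its spliced form was not measured.

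Across the 8 measured folding probe sets, 1 passed in untreated mice and none in treated mice, against 11.9% and 0.792% of all probe sets. In untreated mice 6 had a positive change and 2 a negative one, with a median of 0.07 against 0.04 over all probe sets. In treated mice 1 was positive and 7 were negative, with a median of -0.18 against 0.03. Averaged over both arms, 4 were positive and 4 negative, and the median was -0.03 against 0.04.

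**Figure D2:**
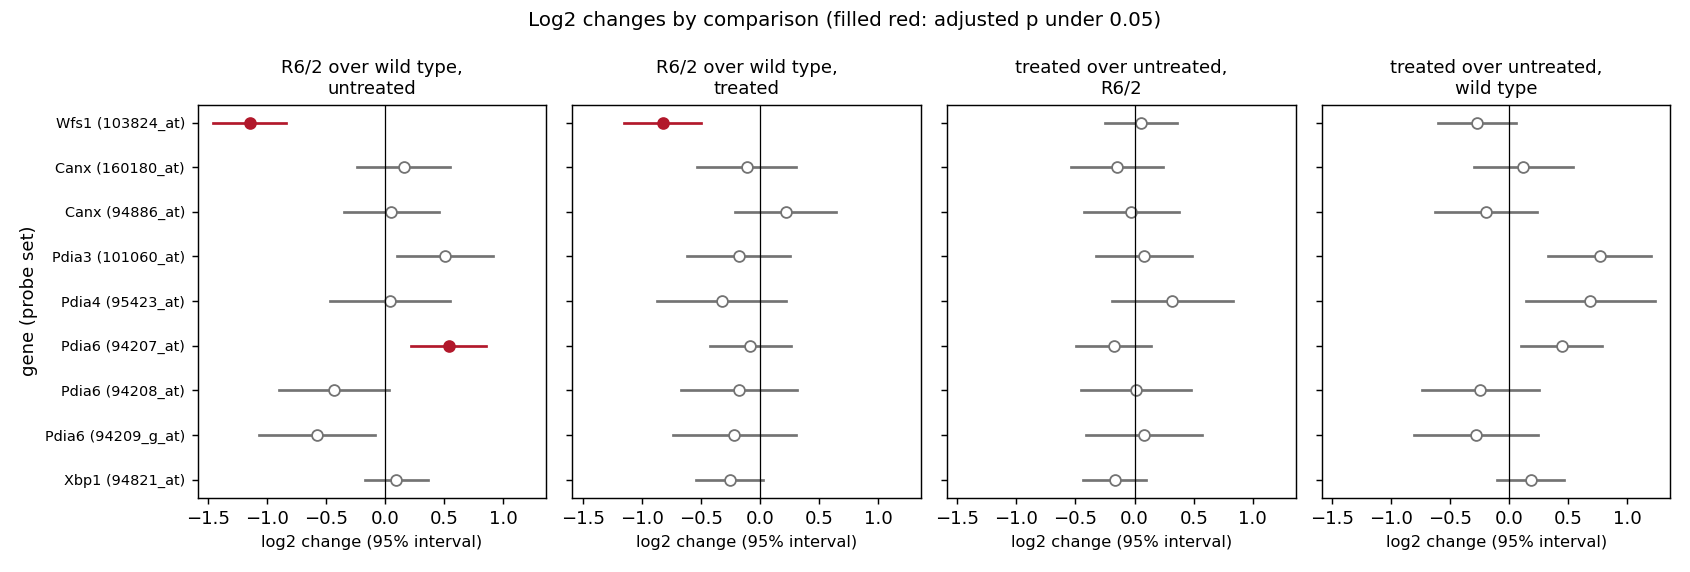
Log2 change (x axis) with its 95% interval for the 9 measured probe sets in 4 comparisons, from limma over all 13 arrays. Filled red points have an adjusted p under 0.05: Wfs1 at -1.15 in untreated and -0.82 in treated mice, and Pdia6 94207_at at 0.54 in untreated mice.

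Wfs1 was then set directly against each folding gene, as the difference of log2 signals within an array, fitted for Wfs1 against all 7452 other probe sets. This difference fell in R6/2 mice for all 8 folding sets when averaged over both arms, with changes of -1.21 to -0.59 on the log2 scale. The largest was against Pdia6 94207_at (-1.21 ± 0.18, SE, adjusted p = 2.70e-06) and the smallest against Pdia6 94209_g_at (-0.59 ± 0.19, adjusted p = 0.00474). Against Xbp1 it was -0.90 ± 0.13 (SE, adjusted p = 2.68e-06), and against Canx 94886_at -1.12 ± 0.15 (adjusted p = 1.13e-06). The difference passed in either direction for 96.3% of all probe sets and fell for 96.2%, so the result is not particular to folding genes. All 7452 differences hold the same Wfs1 values, so their spreads are not independent. The p-values of these differences, here and below, may therefore be too small.

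In untreated mice all 8 differences passed, where 92.0% of all probe sets did. In treated mice 7 of 8 passed, where 85.5% did, and the exception was Pdia4 (-0.50 ± 0.27, SE, adjusted p = 0.0842). Relative to the wild type untreated mean, Wfs1 minus the mean of the folding sets was -1.14 (-1.24 to -0.95) in R6/2 treated, -1.19 (-1.34 to -1.05) in R6/2 untreated and -0.46 (-0.62 to -0.36) in wild type treated samples, and wild type untreated samples spread from -0.18 to 0.15. The wild type treated arrays thus lay between the other groups on this measure without overlapping them. Single probe sets had wild type groups that did not overlap, in either direction, in 21.8% of cases, and the share for averaged differences of this kind was not computed. The treatment change of this difference in wild type mice did not pass against any folding set (smallest adjusted p = 0.0970, against Pdia3).

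**Figure D3:**
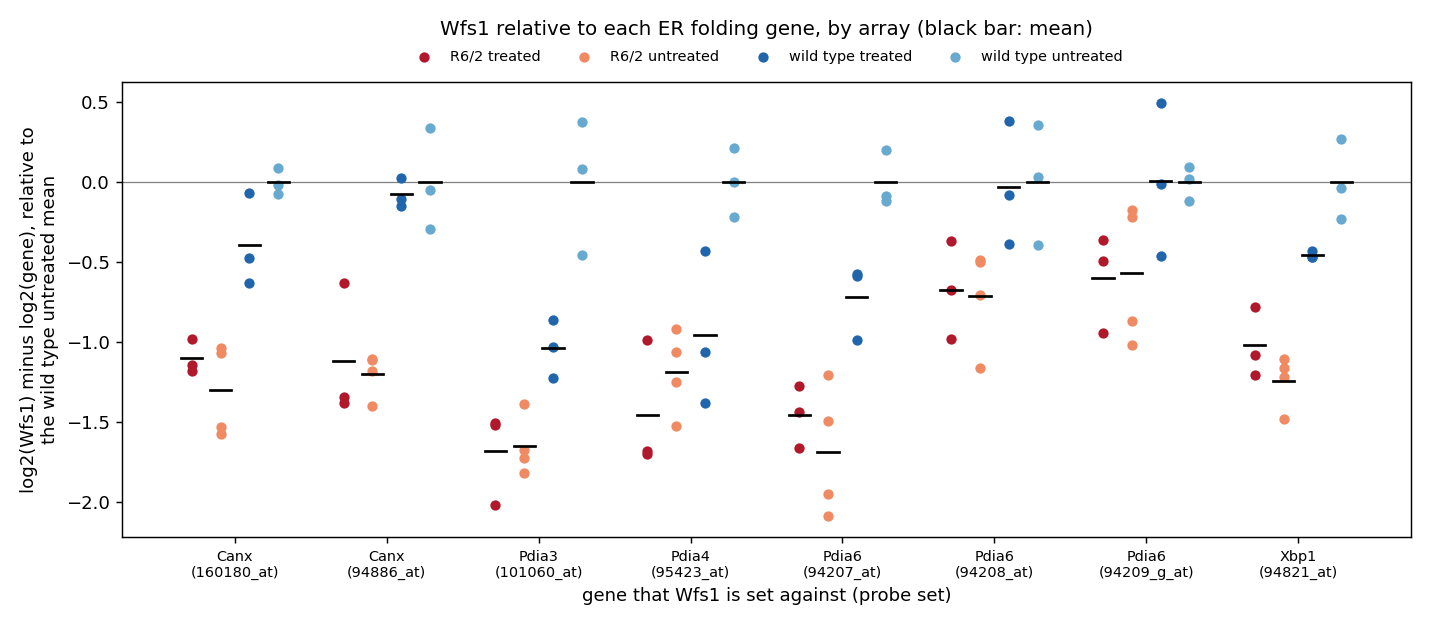
Log2 signal of Wfs1 minus that of each folding probe set (y axis, relative to the wild type untreated mean), 1 point an array and a bar at each group mean. The R6/2 group means lie lowest against every set. Wild type treated points lie between R6/2 and wild type untreated points against Pdia3, Pdia6 94207_at and Xbp1. The widest overlap of groups is against Pdia6 94208_at and 94209_g_at.

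A wider set of ER genes was read from 6 lists, with 101 genes measured by their brightest probe set. In untreated mice 5 rose and 3 fell, 7.92% against 11.9% of all probe sets, none passed in treated mice, and 2 rose on average over both arms, 1.98% against 6.61%. Of the 16 chaperones and lectins none passed on the brightest set. Dnajb11, a cochaperone of the ER Hsp70, changed by 0.61 ± 0.20 (SE, adjusted p = 0.0601) and Lman2, a cargo lectin of the secretory route, by -0.63 ± 0.23 (adjusted p = 0.0828) in untreated mice. Averaged over both arms, Lman1, another cargo lectin, changed by 0.20 (adjusted p = 0.203) and Uggt1, which returns misfolded glycoproteins to calnexin, by -0.34 (adjusted p = 0.232).

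Of the 17 disulfide and proline isomerase genes, 2 rose and 1 fell in untreated mice. Ero1b, the oxidase that feeds disulfide isomerases, had 46 to 64.7 in R6/2 treated and 67.4 to 92.4 in R6/2 untreated samples, against 49.8 to 66.4 in wild type treated and 44.8 to 55.1 in wild type untreated samples (0.74 ± 0.17, SE, adjusted p = 0.0180 in untreated mice). Prdx4, a peroxiredoxin of the ER, had 69.5 to 93.1 in R6/2 untreated against 43.8 to 59 in wild type untreated samples (0.70 ± 0.17, SE, adjusted p = 0.0197). P4hb, the founding disulfide isomerase, fell to 87.7 to 167.5 in R6/2 untreated samples, against 204.1 to 405.5 in wild type untreated samples (-1.10 ± 0.27, SE, adjusted p = 0.0213). In treated mice the same 3 genes changed by -0.12, -0.01 and 0.24, with adjusted p of 0.921 or more.

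Of the 16 sensors and regulators of the unfolded protein response, Atf6b, a sensor related to ATF6, fell by 0.71 ± 0.18 (SE, adjusted p = 0.0248) and Nfe2l2, a regulator of antioxidant genes, rose by 0.71 ± 0.22 (adjusted p = 0.0490) in untreated mice. A dimmer Atf6b set, 92394_f_at, changed by 0.16 (adjusted p = 0.633). Among 12 genes of ER-associated degradation, Sel1l, a partner of the ubiquitin ligase there, fell by 0.72 ± 0.19 (SE, adjusted p = 0.0280) on its brighter set and rose by 0.87 ± 0.22 (adjusted p = 0.0222) on 92871_at, so its direction is unsettled. Edem3, which trims mannose from misfolded glycoproteins, rose over both arms by 0.51 ± 0.14 (SE, adjusted p = 0.0494).

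Of 26 genes of translocation and glycosylation, Ssr3, a subunit of the translocon-associated complex, rose by 0.69 ± 0.18 (SE, adjusted p = 0.0270) in untreated mice, and its other sets changed by -0.52 (adjusted p = 0.210) and -0.94 (adjusted p = 0.0774). Dpm1, which makes the mannose donor of glycosylation, rose by 0.54 ± 0.15 (SE, adjusted p = 0.0369) in untreated mice and by 0.39 ± 0.11 (adjusted p = 0.0460) over both arms. Of 14 genes of ER calcium and of wolframin's partners none passed. Atp2a2, the calcium pump of the ER, changed by -0.36 ± 0.12 (SE, adjusted p = 0.0872) over both arms, Atp6v1a, a proton pump subunit, by 0.44 ± 0.15 (adjusted p = 0.0645) in untreated mice and Vamp2, a vesicle fusion protein, by -0.31 ± 0.11 (adjusted p = 0.0718). A second Vamp2 set, 98925_at, fell by 1.57 ± 0.32 (SE, adjusted p = 0.0107) in untreated mice.

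Reading every probe set of a gene added calls in untreated mice, named here after their values were seen. Dnajb9, a cochaperone of the ER Hsp70, fell by 0.90 ± 0.23 (SE, adjusted p = 0.0249) on 96679_at and changed by 0.05 (adjusted p = 0.911) on its brightest set. Vcp, the ATPase that extracts proteins for degradation, rose by 0.93 ± 0.16 (SE, adjusted p = 0.00519) on 97666_r_at, and by 0.74 over both arms (adjusted p = 0.00203), and its brightest set changed by 0.18 (adjusted p = 0.290) in untreated mice. Rpn1, a subunit of the oligosaccharyltransferase, rose by 0.47 ± 0.14 (SE, adjusted p = 0.0475) on 161400_f_at and changed by -0.19 (adjusted p = 0.391) on its brightest set.

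Without R6/2 untreated arrays 2 and 3, of the 8 genes called in untreated mice only Sel1l passed (-0.62, adjusted p = 0.0493, brighter set). P4hb, Ero1b and Prdx4 kept changes of -1.26, 0.68 and 0.56 that did not pass, with adjusted p of 0.0686, 0.107 and 0.139. Atf6b, Nfe2l2, Ssr3 and Dpm1 were at -0.41, 0.31, 0.40 and 0.35, with adjusted p of 0.180 or more. Over both arms neither Edem3 (0.46, adjusted p = 0.131) nor Dpm1 (0.30, adjusted p = 0.119) passed, while Atp2a2 did (-0.50, adjusted p = 0.00443). Wfs1 passed in both comparisons there, at -0.97 in untreated mice and -0.89 over both arms (adjusted p = 0.000194).

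**Figure D4:**
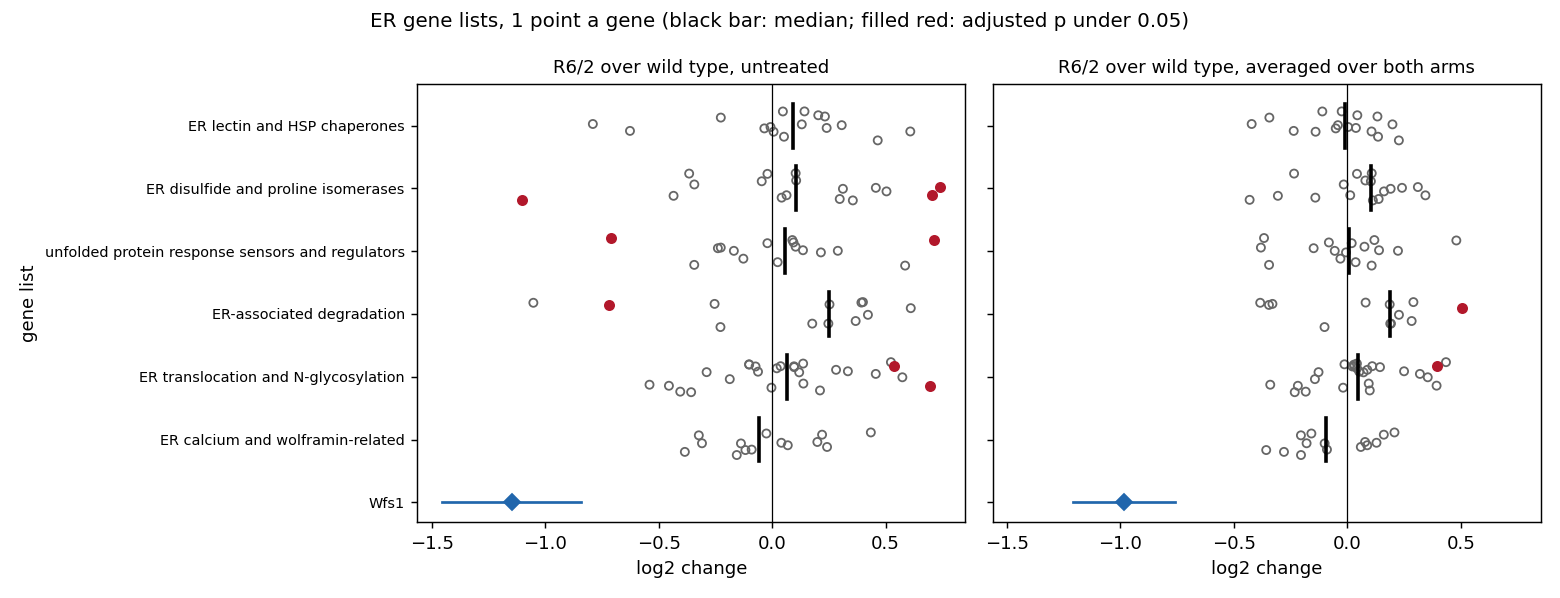
Log2 change of R6/2 over wild type (x axis) for the genes of 6 ER lists, 1 point a gene, untreated on the left and averaged over both arms on the right, with list medians as black bars. Filled red points have an adjusted p under 0.05, 8 of 101 on the left and 2 on the right, and the diamond with its 95% interval is Wfs1, at -1.15 and -0.98.

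The genes whose log2 signal followed Wfs1 most closely over the 13 arrays were Baiap2 (Pearson r = 0.962), Ngef (0.936), Mt1 (0.934), Sst (0.933) and Prkcd (0.929). All 5 fell in untreated R6/2 mice, by 0.76 to 1.68 on the log2 scale, and these arrays share the 4 groups, so the likeness holds the genotype difference itself. With group means taken out, the closest were Abcb8 (r = 0.913), Gys1 (0.904), Crat (0.877), Agpat5 (0.856) and Rit1 (0.847), of which none passed in untreated mice (smallest adjusted p = 0.0509) or on average. They were picked as the highest r over all kept probe sets with a named gene, and whether such values exceed chance was not tested. Taking the closest set of each folding gene, Pdia6 94209_g_at was nearest to Wfs1 over the 13 arrays (r = 0.592), followed by Xbp1 (0.210) and Pdia4 (0.157), and Pdia3 had r = -0.273. With group means taken out, the order was Canx 160180_at (r = 0.435), Xbp1 (0.362), Pdia3 (0.316), Pdia4 (0.274) and Pdia6 94208_at (0.148).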

How the data were processed

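The authors deposited 1 linear intensity per probe set and array, with means near 100 (100.047 to 100.128) after trimming 2% at each end. The software is not given in the sources used here. Of 12488 probe sets, 66 controls were left out. Values under 3.1, the 10th percentile, were set to it, log2 was taken, and the 7453 probe sets with mean log2 at or above the 40th percentile were kept. The annotation gave 10833 probe sets 1 gene, 396 several and 1193 none, and only the first were named. Group means were fitted over 13 arrays with limma 3.58.1 in R 4.3.3 (eBayes with intensity trend), in 6 comparisons, with Benjamini-Hochberg adjustment over all kept probe sets and a threshold of 0.05, and the fit was tested on simulated data. The members and lists were chosen with earlier results of these data known. All member sets were named, then the called genes of each ER list (up to 6 by p), or otherwise the 2 with the smallest p in the untreated and in the averaged comparison, and the 5 genes most like Wfs1 by each measure. The number of arrays limits the precision. Alternatives covered scaling, floor, filter, groups fitted, trend, array weights, left-out arrays and all probe sets of a list gene.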

Additional observations from a re-analysis of the deposited data

How the results depend on the processing

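Wfs1 passed in untreated mice under all 23 alternatives (-1.23 to -0.97), and over both arms under 23 of 24. The remaining alternative was exact permutation (-0.98, adjusted p = 0.0507). There Wfs1 had the smallest possible p, so no probe set had a lower adjusted p and none passed. In treated mice Wfs1 ranged from -0.92 to -0.73 with 1 array left out. Probe sets called in untreated mice numbered 887, against 512 without a filter, 243 with only the groups compared, 167 without R6/2 untreated arrays 2 and 3, and 156 to 1301 with 1 array left out. Those in treated mice numbered 59, against 208 with array weights, 119 without both arrays and 20 to 97 with 1 left out, and those over both arms 493, against 932 with array weights and 263 to 705. Treatment in R6/2 mice gave 0, against 1 without a filter, 1 without both arrays and 0 to 116 with 1 left out. Treatment in wild type mice gave 0, against 3 with a floor of 20, 2 with log2(value + 16), 2 without a filter, 9 with only the groups compared, 1 without a trend, 120 with array weights, 8 without both arrays and 0 to 6 with 1 left out. The member sets called in untreated mice were 2, against 1 with median scaling, a filter at the 60th percentile, only the groups compared or both arrays left out, and 1 to 4 with 1 left out. In treated mice they were 1, against 0 to 1 with 1 left out, and with treatment in wild type mice 0, against 1 with array weights. With every kept probe set of a gene read, list calls in untreated mice were 1 for chaperones, 1 for ER calcium and 3 for ER-associated degradation, against 0, 0 and 1, and 2 against 1 for the last over both arms. The causes were not tested, beyond the fewer probe sets or arrays some alternatives hold. The values of list genes without both arrays were added after seeing the data. No paired analysis was possible because the replicate numbers are in accession order and pair no samples. Dim probe sets such as that of Calr limit what can be said of their genes.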
